A study of Mus musculus with 20 samples.

Results

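*Mef2a*, *Mef2c*, *Mef2d*, *Myocd* and *Srf* encode the MADS-box transcription factors and the coactivator that act on heart and smooth muscle genes, and 5-formylcytosine (5fC) was read here as the bases of each gene that lie under pull-down peaks. These 5 genes of 37273 annotated genes on 21 chromosomes were put together by their known roles, with earlier results of these data known. Counts of members beside all gene windows are therefore descriptive. Each gene was taken with 5 kb on each side in NCBIM37 (mm9) coordinates, and this stretch is called its window. 5fC was captured chemically from genomic DNA of mouse embryos at E11.5 and sequenced, and peaks were called in each library on its own. The libraries came from hindbrain, heart, liver and carcass, the carcass being the tissue left after dissection. Embryos were wild-type (WT) or *Tdg* null, with no active thymine DNA glycosylase in any tissue because a neomycin resistance marker took the place of part of the gene, and both genotypes came from crosses of heterozygous parents. Hindbrain came from 1 WT and 1 *Tdg* null embryo of each of 4 litters, named A, O, Q and Z. Heart, liver and carcass were taken from the same embryos of 2 further pairs, called e and f here, each of 1 WT and 1 *Tdg* null embryo matched by litter. Whether these 2 pairs are separate litters is not settled by the labels, while the study's list of replicates gives them as litter pairs e and f. In all, 12 embryos in 6 pairs gave 20 libraries. 1 *Tdg* null liver library (pair f) held 228 peaks in all and none in the 5 windows, and the values below are from the other 19 libraries.

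TET enzymes oxidise 5-methylcytosine in steps to 5fC, and thymine DNA glycosylase removes 5fC, so the base marks DNA where methylation is being turned over. Srf binds the CArG box of muscle and growth-response genes, and myocardin, the product of *Myocd*, is its coactivator in heart and smooth muscle. The Mef2 proteins bind an A/T-rich site in muscle genes and work with Gata4, Hand2 and Tbx5, while class IIa histone deacetylases repress them. The peaks measure 5fC in DNA and say nothing of how strongly a gene is transcribed.

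*Myocd*, on the minus strand of chromosome 11, was the member with the largest share of its window under 5fC peaks in the *Tdg* null hearts. Sequences are given for the stretches that the results turn on, each as the 200 bases around the middle of the stretch, on the plus strand of mm9, with the CpG dinucleotides in capitals because TET enzymes act mostly on methylated CpG. In intron 3.3 kb inside *Myocd*, chr11:65079301-65081100 lay under peaks of both *Tdg* null hearts and of no *Tdg* null hindbrain or carcass. The middle of these 1800 bases, chr11:65080101-65080300, holds 6 CpG.
*Myocd*, both hearts: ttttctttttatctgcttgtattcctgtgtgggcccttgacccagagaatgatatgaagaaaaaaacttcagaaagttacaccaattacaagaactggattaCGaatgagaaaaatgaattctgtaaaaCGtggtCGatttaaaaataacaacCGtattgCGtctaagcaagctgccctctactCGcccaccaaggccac
A second stretch of *Myocd*, chr11:65018001-65019000, lay under peaks of all 9 *Tdg* null libraries and overlapped a coding exon 65.0 kb inside the gene. Its middle, chr11:65018401-65018600, holds 8 CpG.
*Myocd*, all 9 libraries: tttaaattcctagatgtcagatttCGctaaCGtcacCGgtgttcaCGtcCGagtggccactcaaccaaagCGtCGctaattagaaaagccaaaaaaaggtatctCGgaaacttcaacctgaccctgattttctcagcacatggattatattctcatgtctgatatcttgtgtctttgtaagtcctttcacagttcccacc

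For the 3 Mef2 genes among the members the same 2 kinds of stretch are shown where they exist. The longest stretch of *Mef2c*, on chromosome 13, that was covered in both hearts and in no hindbrain or carcass was chr13:83792101-83792700, which overlaps a coding exon. A peak of the *Tdg* null liver also overlapped it. Of 2 stretches of equal length covered in all 9 libraries, the first by position, the intronic chr13:83676201-83676600, is shown. For *Mef2a* chr7:74418401-74419000 and for *Mef2d* chr3:87952201-87953000 are shown, both intronic. Each shares its length with another heart stretch of its gene, and the first by position was taken. The bases printed are chr13:83792301-83792500, chr13:83676301-83676500, chr7:74418601-74418800 and chr3:87952501-87952700, with 5, 3, 3 and 3 CpG.
*Mef2c*, both hearts: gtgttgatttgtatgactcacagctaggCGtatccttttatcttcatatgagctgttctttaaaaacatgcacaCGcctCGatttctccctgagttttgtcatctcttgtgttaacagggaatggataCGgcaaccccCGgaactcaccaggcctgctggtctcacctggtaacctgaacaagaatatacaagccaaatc
*Mef2c*, all 9 libraries: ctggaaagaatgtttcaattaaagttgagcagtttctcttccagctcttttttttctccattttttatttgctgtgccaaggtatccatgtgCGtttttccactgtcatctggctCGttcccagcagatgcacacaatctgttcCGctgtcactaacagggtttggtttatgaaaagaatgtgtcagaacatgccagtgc
*Mef2a*, both hearts: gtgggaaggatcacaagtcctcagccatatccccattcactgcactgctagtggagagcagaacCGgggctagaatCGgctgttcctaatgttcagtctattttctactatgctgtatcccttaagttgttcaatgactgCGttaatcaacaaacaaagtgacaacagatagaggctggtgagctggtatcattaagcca
*Mef2d*, both hearts: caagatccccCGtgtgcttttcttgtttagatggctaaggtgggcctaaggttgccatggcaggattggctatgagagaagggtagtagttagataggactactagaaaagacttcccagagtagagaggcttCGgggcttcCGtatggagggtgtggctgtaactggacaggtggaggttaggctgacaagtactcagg

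Coverage of the genome differed greatly between libraries. The 9 *Tdg* null libraries used held 101344 to 254319 peaks over 2.68% to 8.09% of the sequenced genome, and the 10 WT libraries held 1563 to 42012 peaks over 0.0350% to 0.939%. The number of reads behind a peak is not in the files, so the depth of each library is unknown. A window with no peak is therefore one where none was called, and not one shown to lack 5fC. In whole tissue, fewer cells with 5fC at a site cannot be told apart from less 5fC per cell.

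The myocardin gene spans chr11:64990063-65083491. In the *Tdg* null hearts 5fC peaks covered 43.8% of its window in pair e, with 40 peaks, and 25.1% in pair f, with 26 peaks. The *Tdg* null hindbrains were covered over 9.09%, 9.38%, 9.77% and 8.02% (A, O, Q and Z in turn), the carcasses over 10.8% and 13.5%, and the liver over 12.1%. Both hearts thus lay above the other 7 *Tdg* null libraries, which stayed within 8.02% and 13.5%. Against the coverage of the whole genome in the same library, *Myocd* stood 5.41-fold and 6.91-fold higher in the 2 hearts, at the 97.4 percentile of gene windows in both. In the other 7 libraries it stood 1.79-fold to 3.99-fold above the genome. In WT tissue, 6 of 10 libraries had a peak, with 3.58% and 3.19% of the window covered in the carcasses, 1.06% in 2 of 4 hindbrains (O and Q), 0.387% in 1 of 2 hearts (f) and 0.290% in 1 of 2 livers (e).

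*Mef2d*, which is expressed in many tissues, spans chr3:87946294-87976008 on the plus strand. Its window was covered over 30.2% and 16.7% in the *Tdg* null hearts (14 and 10 peaks). The hindbrains had 9.32%, 3.78%, 1.01% and 2.01%, the carcasses 5.79% and 10.1%, and the liver 6.55%. The hearts were again above all 7 others, but the hindbrains varied widely among themselves, from 1 to 3 peaks. WT peaks were found in 1 carcass (e, 1.51%) and 1 liver (e, 1.76%). The lincRNA 1700113A16Rik takes up 5527 bases of this window, 527 of them within *Mef2d* and the others in a flank.

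*Mef2a* spans chr7:74376049-74517744 on the minus strand and was the least covered member in both *Tdg* null hearts and both carcasses. The *Tdg* null hearts had 8.70% and 4.02% of the window under 21 and 13 peaks. The hindbrains had 1.32%, 0.396%, 1.58% and 1.25%, the carcasses 0.330% and 1.65%, and the liver 2.37%. Although the hearts were the highest of the *Tdg* null libraries, they only matched the genome as a whole, at 1.08-fold and 1.10-fold of its coverage. The hindbrains stood at 0.148-fold to 0.449-fold and the carcasses at 0.0612-fold and 0.218-fold of it. Among gene windows, *Mef2a* stood at the 59.7 and 63.0 percentile in the 2 hearts. *Lysmd4* takes up 2294 bases of one flank.

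*Mef2c*, the Mef2 gene needed earliest in the developing heart and also active in endothelium, neurons and skeletal muscle, spans chr13:83643033-83806684 on the plus strand. Its *Tdg* null hearts had 20.6% and 8.52% of the window covered, with 51 and 27 peaks. The carcasses had 9.90% and 14.5%, so that heart and carcass overlapped. The hindbrains (4.20%, 2.42%, 4.26% and 4.20%) and the liver (3.74%) lay below both. The WT carcasses had 1.44% and 0.979%, WT liver e had 0.634% and WT hindbrain Q had 0.461%.

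*Srf* spans chr17:46683788-46693111 on the minus strand, and its window is short, so single peaks weigh heavily in it. The *Tdg* null hearts had 17.1% and 5.17% (5 peaks and 1 peak), the carcasses 14.0% and 10.9%, and the hindbrains 9.31%, 7.76%, 7.76% and 3.62%. Heart e was highest and the carcasses came next, while heart f lay among the hindbrains. On the scale of the tissue comparison below, carcass and hindbrain differed by 0.01 ± 0.42 (SE; limma adjusted p = 0.991). The *Tdg* null liver and all 10 WT libraries had no peak in this window. The lincRNA Gm16736 lies over the whole window, and *Cul9* takes up 4550 bases of one flank.

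In both hearts the members came in the same order of coverage, *Myocd*, *Mef2d*, *Mef2c*, *Srf* and *Mef2a*. Both *Tdg* null hearts lay above the other 7 *Tdg* null libraries in 3 of 5 members (*Mef2a*, *Mef2d* and *Myocd*), and in 15.9% of all gene windows.

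**Figure D1:**
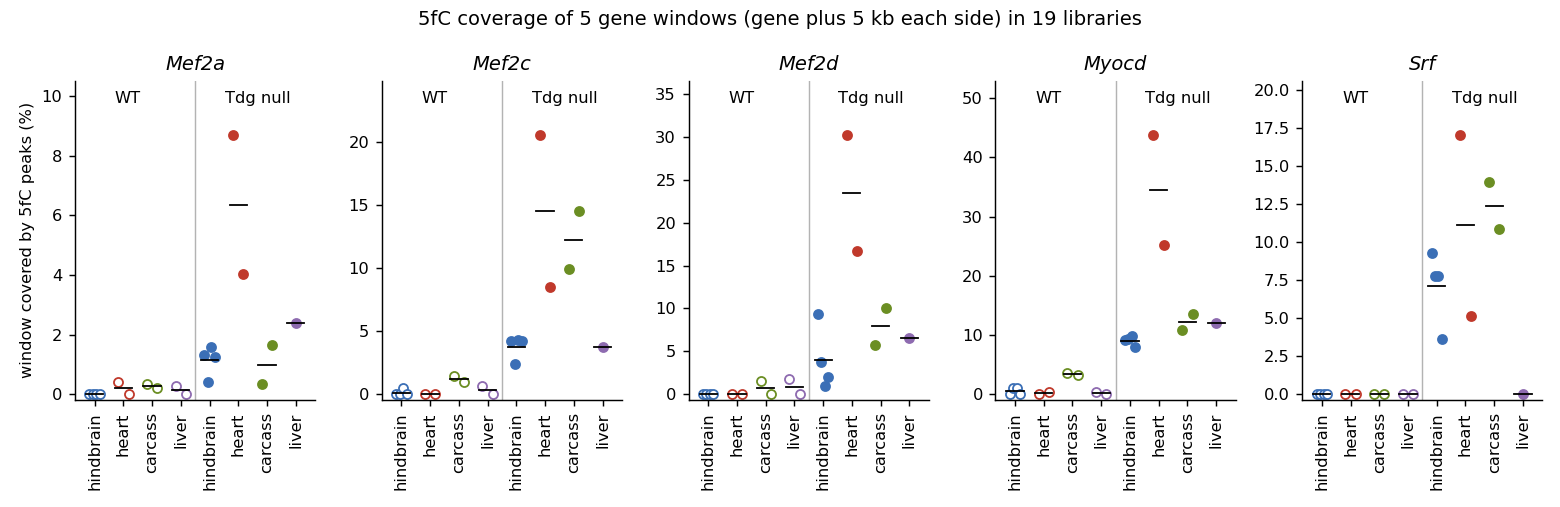
Percentage of each gene window under 5fC peaks in 19 libraries, on an axis of its own for each gene. Open points are WT libraries, filled points *Tdg* null libraries, and bars the group means; both *Tdg* null hearts lie above every other library for *Mef2a*, *Mef2d* and *Myocd*, and no WT library has a peak over *Srf*.

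The first comparison asks how much more of each gene lies under 5fC peaks when the glycosylase is missing. In hindbrain, the *Tdg* null libraries covered more of every member than the WT libraries, and the groups did not overlap. *Myocd* had 9.06% ± 0.746 (SD, n = 4) in *Tdg* null against 0.532% ± 0.614 (SD, n = 4) in WT hindbrain. The corresponding means were 7.12% ± 2.44 against 0 for *Srf*, 4.03% ± 3.71 against 0 for *Mef2d*, 3.77% ± 0.903 against 0.115% ± 0.230 for *Mef2c*, and 1.14% ± 0.515 against 0 for *Mef2a* (SD, n = 4). The two-sided exact permutation test gave p = 0.0286 for each of the 5 members, the smallest p that 4 against 4 libraries allow. With peaks of at least 600 bp alone, *Mef2a* and *Mef2d* no longer reached that p, and the difference for *Mef2a* was much smaller (values under the processing below). Taken as litter pairs, the 4 hindbrain differences gave p = 0.125 by exact sign flips for every member, which is also the smallest possible. Without litter A the difference for *Mef2d* was 2.27 percentage points in place of 4.03, and on the gene body alone that for *Srf* was 13.4 in place of 7.12. Groups that did not overlap, with *Tdg* null higher, were found in 45.0% of all gene windows. 

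With the tissues of a pair averaged, *Tdg* null exceeded WT in 6 of 6 pairs for all 5 members, against 44.5% of all gene windows. The mean difference was 12.1 percentage points ± 5.65 for *Myocd*, 7.81 ± 2.29 for *Srf*, 7.10 ± 5.55 for *Mef2d*, 6.06 ± 3.78 for *Mef2c* and 1.79 ± 1.12 for *Mef2a* (SD, n = 6 pairs), each with an exact sign-flip p of 0.0313, the smallest that 6 pairs allow. The carcass of pair e was the one without a difference in *Mef2a*, at 0.330% in both genotypes. 

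The *Tdg* null libraries held more peaks over the genome as well. Fold over the genome coverage of the same library was therefore set side by side, with no test, for every pair in which the WT library had a peak. For *Myocd* it was higher in WT in hindbrain O (6.02-fold against 3.51-fold in *Tdg* null) and in carcass e (3.81 against 2.01) and f (3.98 against 1.79). It was higher in *Tdg* null in hindbrain Q (2.27-fold in WT against 2.77-fold), heart f (3.22 against 6.91) and liver e (0.910 against 3.99). For *Mef2a* it was higher in WT in heart e (2.98-fold against 1.08-fold), liver e (0.827 against 0.783) and carcass e (0.351 against 0.0612) and f (0.247 against 0.218). For *Mef2c* it was higher in *Tdg* null in hindbrain Q (0.982-fold in WT against 1.21-fold) and carcass e (1.53 against 1.84) and f (1.22 against 1.92), and higher in WT in liver e (1.99 against 1.23). For *Mef2d* it was higher in WT in carcass e (1.61-fold against 1.07-fold) and liver e (5.53 against 2.16). Many of these WT values rest on 1 or 2 peaks. Pairs with no WT peak, which include all pairs of *Srf*, stand at 0 in WT and are not part of this account, so it gives no order over all pairs of a gene.

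The second comparison sets the *Tdg* null tissues against each other. Coverage was put on a log2 scale after adding 1 percentage point, relative to the genome coverage of the same library treated alike, and tested with limma over 27317 gene windows. Relative to hindbrain, heart was higher for *Myocd* by 1.19 ± 0.19 (SE; limma adjusted p = 0.00457), *Mef2c* by 1.03 ± 0.19 (limma adjusted p = 0.00811) and *Mef2a* by 1.16 ± 0.32 (limma adjusted p = 0.0345). *Mef2d* had the largest difference, 1.92 ± 0.60, but missed the threshold of 0.05 (limma adjusted p = 0.0507), and *Srf* had -0.14 ± 0.42 (limma adjusted p = 0.821). On the gene body alone, without the 5 kb flanks, *Srf* had -2.30 (limma adjusted p = 0.0813). Higher calls were thus 3 of 5 members against 16.4% of all windows tested, and lower calls 0 of 5 against 11.6%. The median difference over all windows was 0.13. Among the 27317 windows, the difference stood at the 81.6 percentile for *Myocd*, the 78.1 for *Mef2c*, the 81.1 for *Mef2a* and the 91.9 for *Mef2d*. The call for *Mef2a* was lost when any 1 of the 4 hindbrain or 2 heart libraries was left out (6 of 9 such fits, limma adjusted p up to 0.128), and *Mef2d* passed the threshold when hindbrain A was left out (2.33, limma adjusted p = 0.0137). Heart and hindbrain came from different litters, so that tissue and litter cannot be told apart here. Without the relation to genome coverage the median over all windows was 0.71 and 85.0% of the calls were higher in heart, against 58.7% with it.

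Against carcass, which came from the same embryos as heart, *Mef2a* was higher by 2.08 ± 0.37 (limma adjusted p = 0.00781) and *Myocd* by 1.57 ± 0.22 (limma adjusted p = 0.0032). *Mef2d* had 1.62 ± 0.70 (limma adjusted p = 0.12), *Mef2c* 0.33 ± 0.22 (limma adjusted p = 0.298) and *Srf* -0.15 ± 0.49 (limma adjusted p = 0.851). On the gene body alone *Srf* had -2.25 (limma adjusted p = 0.129). The size for *Mef2a* depended on the pseudocount, with 2.85 at 0.2 and 1.004 at 5 percentage points, called at both (limma adjusted p = 0.0278 and 0.00239). Higher calls were 2 of 5 members against 19.4% of windows, and lower calls 0 of 5 against 8.22%. Scaling to the median window turned 70.2% of calls higher in heart into 48.1%. The median over all windows was 0.34, so the value of *Mef2c* was that of a typical window. With the pair as a block, the adjusted p was 0.0804 for *Mef2a* and 0.0434 for *Mef2d*. Carcass and hindbrain were not told apart for any member by limma, with 0 of 5 called in either direction against 1.90% higher and 3.81% lower over all windows (33.3% of the calls higher in carcass, and 72.2% without scaling). The nearest was *Mef2c*, 0.70 higher in carcass (SE 0.19, limma adjusted p = 0.0783), and at an unadjusted p of 0.05 *Mef2c* was higher and *Mef2a* lower (-0.92, SE 0.32), as were 7.09% and 21.9% of all windows. The 2 comparisons with heart share the heart libraries and are not independent of each other.

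**Figure D2:**
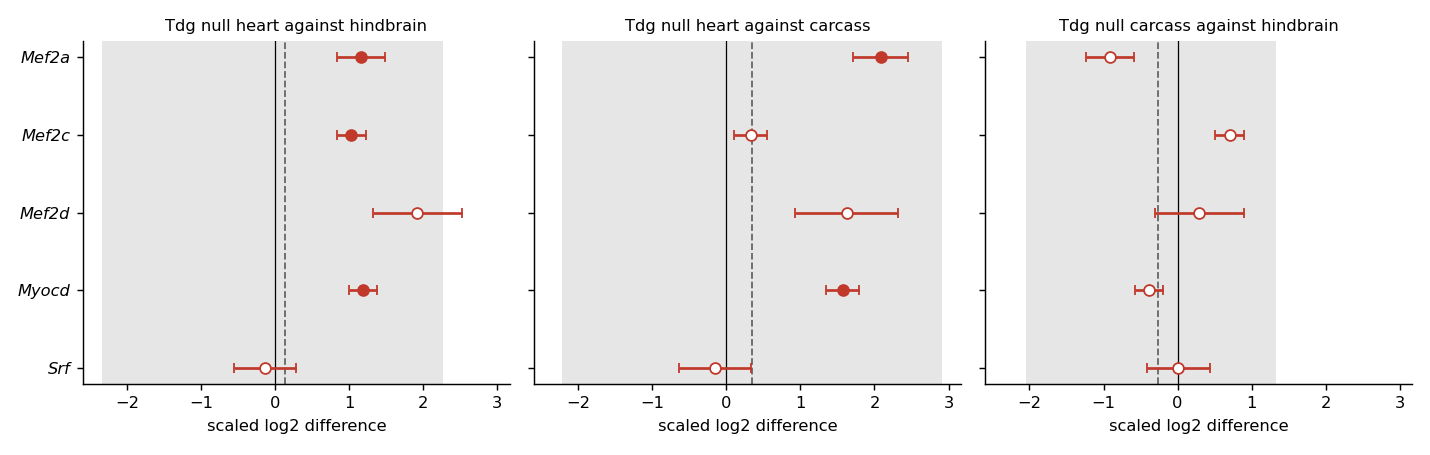
Difference between *Tdg* null tissues in scaled log2 5fC coverage for the 5 genes, as points with the standard error, filled where the limma adjusted p is below 0.05. The grey band holds the 5th to 95th percentile of all gene windows tested and the dashed line is their median; the 3 filled points against hindbrain are *Mef2a*, *Mef2c* and *Myocd*.

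Where in the genes the heart peaks lay was examined next. Both *Tdg* null hearts shared peaks over 24.9% of the *Myocd* window, 15.4% of *Mef2d*, 8.35% of *Mef2c*, 5.17% of *Srf* and 3.30% of *Mef2a*, against 3.44% of the genome. Peaks of the less covered heart (f) lay almost wholly inside those of heart e, with 99.2% of their bases for *Myocd*, 98.0% for *Mef2c*, 92.3% for *Mef2d* and 82.0% for *Mef2a*, against 94.5% over the genome. Of the bases shared by both hearts, 75.4% in *Mef2d*, 70.0% in *Mef2a* and 57.4% in *Myocd* were covered in no *Tdg* null hindbrain or carcass, against 42.3% over the genome. In *Mef2c* the share was 40.7% and in *Srf* 30.0%. There 55.9% and 70.0% of the heart bases were also covered in carcass, against 52.5% over the genome. The *Tdg* null liver covered 43.0% of the shared heart bases of *Myocd* and 37.7% of those of *Mef2d*, against 42.4% over the genome, but 16.0% of those of *Mef2a* and none of those of *Srf*.

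**Figure D3:**
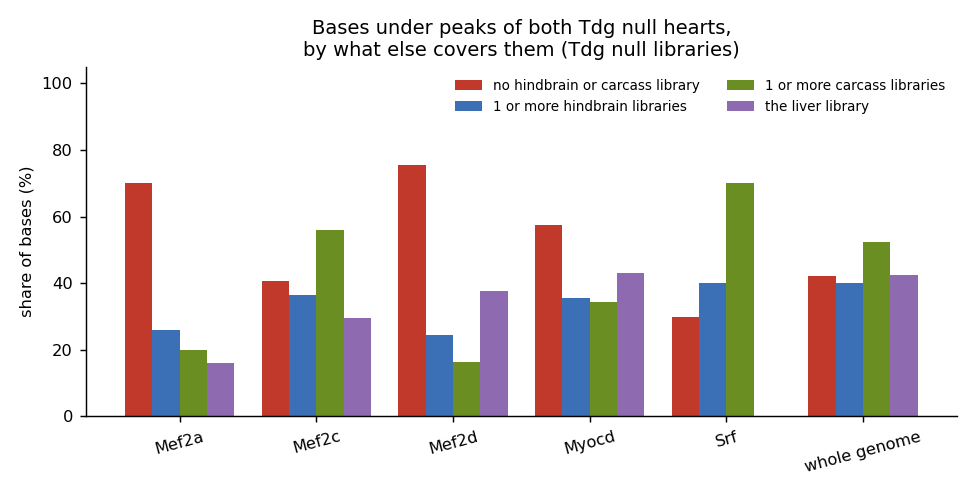
Share of the bases under peaks of both *Tdg* null hearts that no *Tdg* null hindbrain or carcass library covers, or that at least 1 hindbrain, at least 1 carcass or the liver library covers, for each gene window and the whole genome. The first share is above that of the genome for *Mef2a*, *Mef2d* and *Myocd*, and the carcass share is highest for *Srf*.

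In *Myocd* the stretches covered in both hearts, without hindbrain or carcass, numbered 23 and held 14800 bases, 14.3% of the window against 1.45% of the genome. Of these, 20 were intronic, as is 83.9% of the window, 2 overlapped a coding exon and 1 lay upstream, and 9 of the intronic ones were also covered in the liver. The longest were the one printed above, chr11:65075201-65076500 at 7.6 kb inside the gene, and 2 of equal length, chr11:65065401-65066500 at 17.5 kb and chr11:65077701-65078800 at 5.2 kb, all in intron. Liver peaks overlapped all of these but the one at 17.5 kb. A different set, 4 stretches of 2600 bases in all, lay under peaks of all 9 *Tdg* null libraries. That is 2.51% of the *Myocd* window, against 0.329% of the genome. Each of these 4 was also covered in at least 1 WT library. The one at chr11:65018001-65019000 was covered in 4 WT libraries, hindbrains O and Q and both carcasses.

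**Figure D4:**
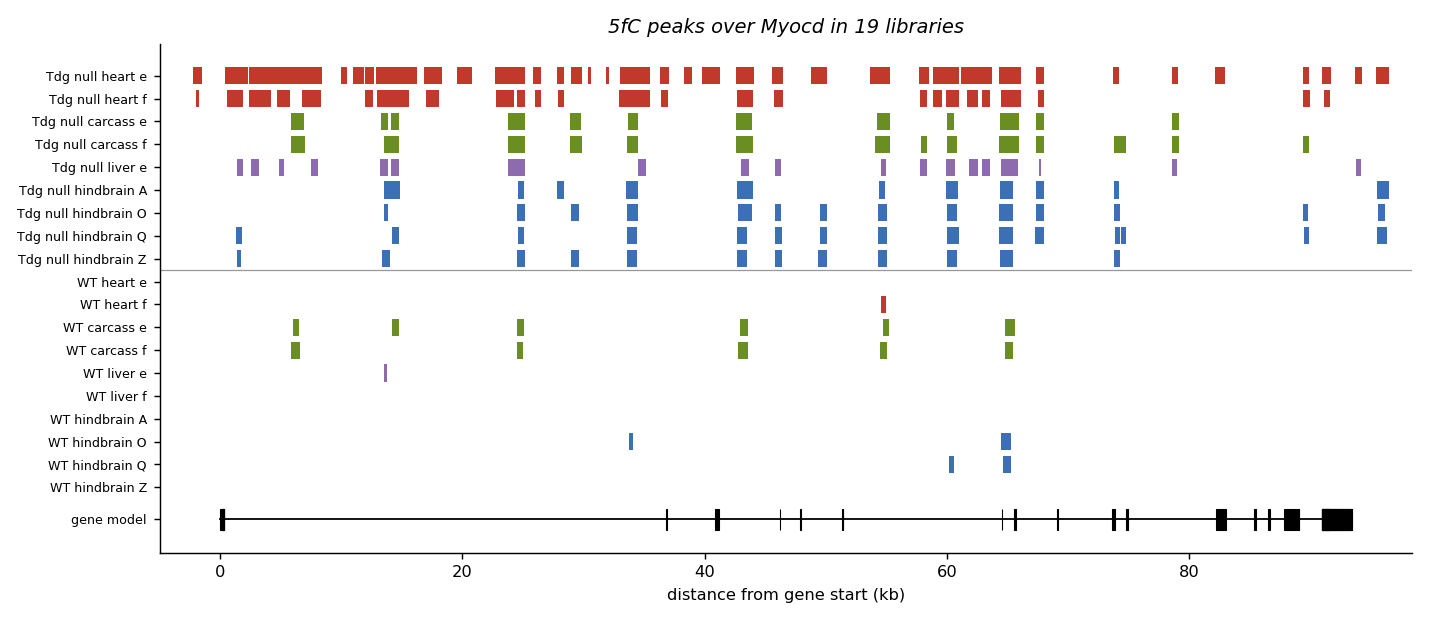
5fC peaks over *Myocd* and 5 kb on each side, by distance from the gene start in kb, 1 row for each of 19 libraries, with *Tdg* null above the grey line, WT below it, and exons as black blocks. The hearts are covered densely over the first part of the gene, and the column of peaks at about 65.0 kb is shared by all 9 *Tdg* null libraries and 4 WT libraries.

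*Mef2c* combined several kinds of stretch, of which 3 are given here. Both hearts, without hindbrain or carcass, covered 17 stretches of 5900 bases, 3.40% of the window against 1.45% of the genome. Of these 17, 16 were intronic, as is most of the window. After the exonic one printed above, 7 intronic ones had the same length of 500 bases, the first being chr13:83668801-83669300 and chr13:83669901-83670400, at 26.0 and 27.1 kb inside the gene, and WT liver e had a peak in the latter. Both carcasses, without heart, covered 11 stretches of 4100 bases, 2.36% of the window against 2.25% of the genome, the longest being chr13:83657601-83658300, in intron. All 9 *Tdg* null libraries covered 2 stretches, the intronic one printed above and chr13:83801901-83802300, which overlaps a coding exon 159.1 kb inside the gene.

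In *Mef2d* the heart stretches numbered 9 and held 4608 bases, 11.6% of the window against 1.45% of the genome. The longest were the intronic one printed above and chr3:87959901-87960700 over a coding exon, of equal length, followed by chr3:87943601-87944300 upstream of the gene and an intronic stretch of the same length, 700 bases. WT liver e had a peak in the one over the coding exon. The *Tdg* null liver covered 2 of the intronic heart stretches and 1 downstream of the gene. The opposite case was chr3:87971901-87972400, over a coding exon 25.9 kb inside the gene, which was covered in both carcasses and 3 of 4 hindbrains but in neither heart. *Mef2a* had 9 heart stretches of 3500 bases (2.31% of the window), all in intron, which makes up 89.2% of its window. Of these, chr7:74431401-74432000 was as long as the one printed and chr7:74404901-74405400 was one of 2 next in length. The liver also covered chr7:74404901-74405400. *Srf* had 1 heart stretch, of 300 bases (1.55% of the window), chr17:46695301-46695600, 2.3 kb upstream of the gene start. The column of *Srf* peaks near the other end of the gene, at 7.2 kb, was covered over chr17:46685801-46686000 in all 4 hindbrains and both carcasses and in neither heart, although a peak of heart e lay directly beside it.

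**Figure D5:**
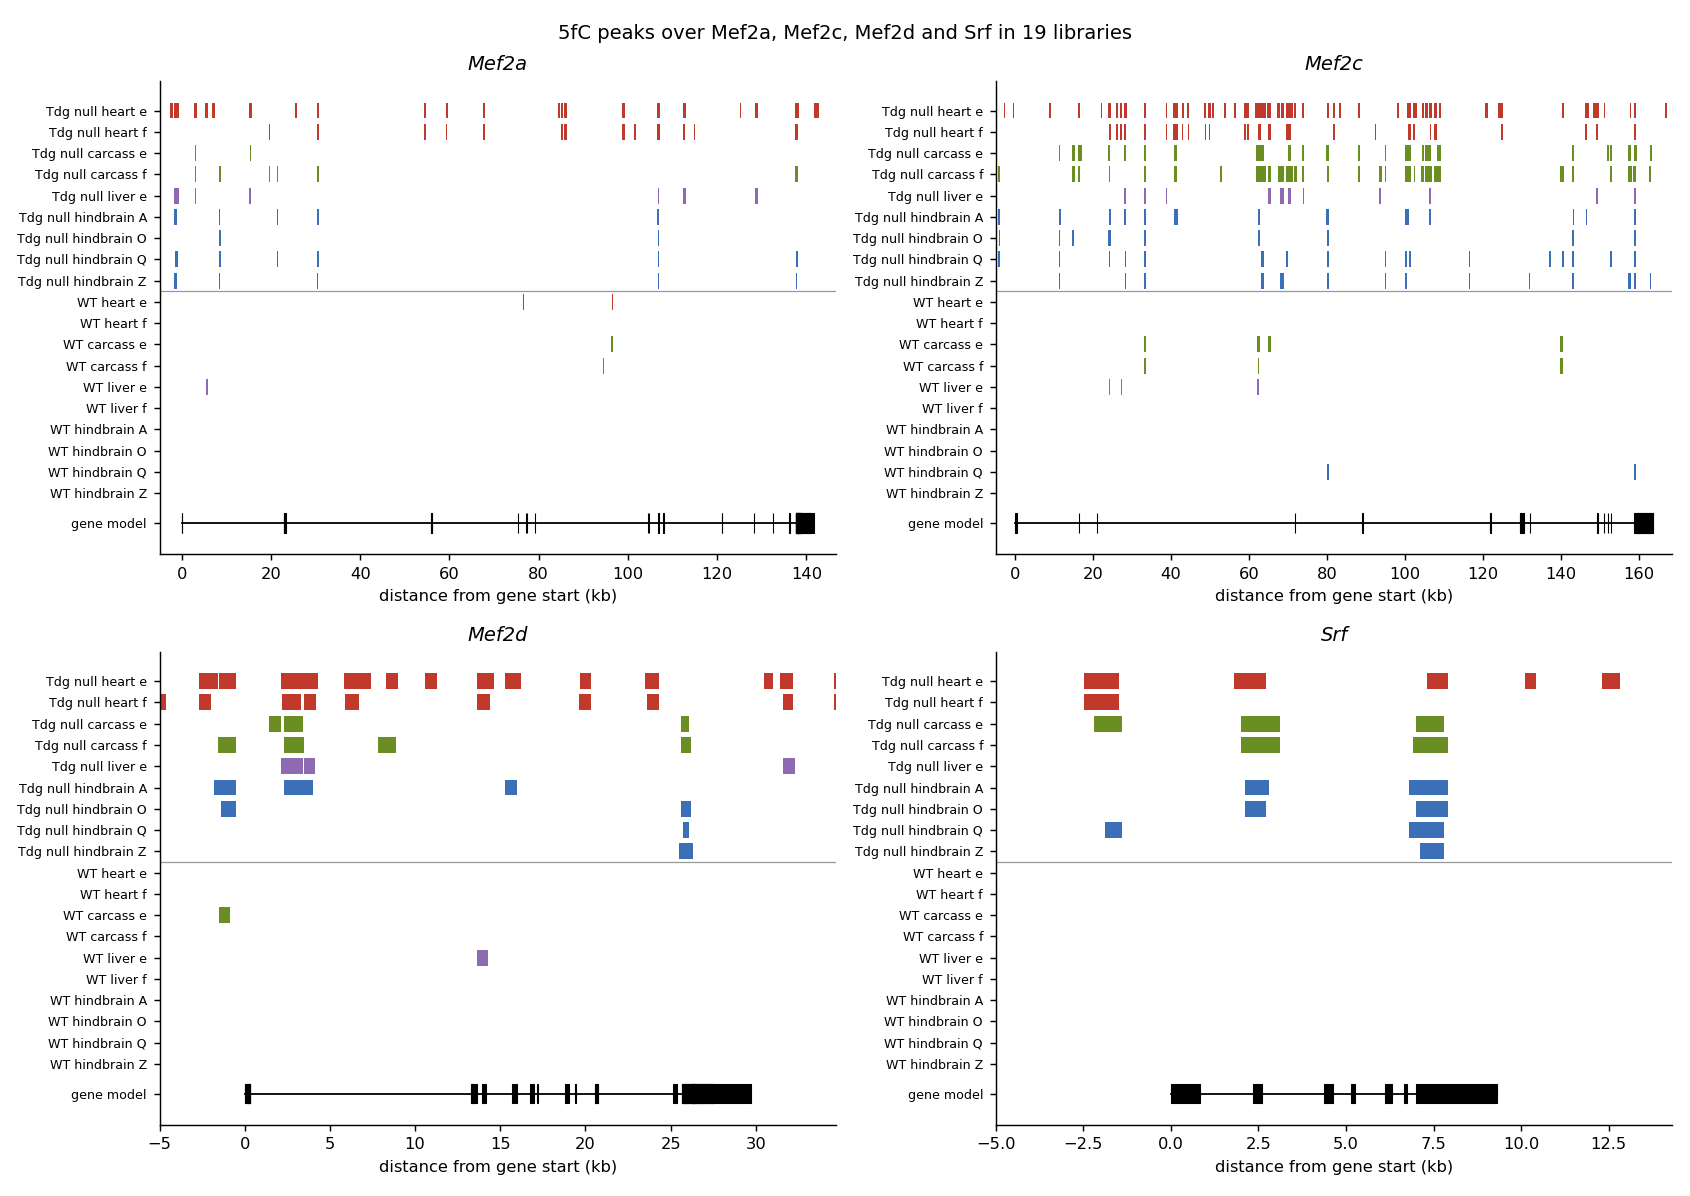
5fC peaks over *Mef2a*, *Mef2c*, *Mef2d* and *Srf* with 5 kb on each side, by distance from the gene start in kb, 1 row for each of 19 libraries, *Tdg* null above the grey line and WT below it, exons as black blocks. The *Mef2a* peaks of WT heart and carcass stand where no *Tdg* null library has one, and WT rows of *Srf* are empty.

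The region around the gene starts was looked at separately. Within 1 kb of the start, the *Tdg* null libraries with a peak numbered 4 of 9 for *Mef2d*, 3 of 9 for *Mef2a*, 2 of 9 for *Myocd*, 1 of 9 for *Mef2c* and 0 of 9 for *Srf*. The 2 for *Myocd* were the hearts, whose nearest peaks began 391 and 591 bases from the start, while those of the hindbrains, carcasses and liver were 1291 to 13491 bases away. In the 2 kb around the start, observed over expected CpG was 0.835 for *Mef2a*, 0.797 for *Srf*, 0.733 for *Mef2d*, 0.541 for *Myocd* and 0.277 for *Mef2c*.

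The members differed in how CpG-rich their peaks were. Bases under any *Tdg* null peak held 13.2 CpG per kb in *Myocd*, against 7.66 outside, and 11.3 against 6.55 in *Mef2c* and 10.6 against 6.77 in *Mef2a*. In *Mef2d* (13.2 against 15.6) and *Srf* (23.0 against 26.6) the bases under peaks were no richer in CpG than the others. The stretches covered in all 9 libraries held 21.2 CpG per kb in *Myocd* and 27.5 in *Mef2c*.

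The printed sequences were searched on both strands for the CArG box of Srf, the MEF2 site, the E-box CANNTG and the letters GATAA, which Gata factors bind; these patterns can overlap one another. The *Myocd* heart sequence alone held a MEF2 site. GATAA was in the heart sequences of *Myocd* and *Mef2c*, and CANNTG in both *Mef2c* sequences, the *Mef2d* sequence and the *Myocd* sequence covered in all 9 libraries. No printed sequence held a CArG box. Among 62621 stretches of the genome covered in both hearts and in no hindbrain or carcass, and cut to the same length, 3.54% held a MEF2 site, 0.98% a CArG box, 67.81% CANNTG and 40.0% GATAA. For 12367 stretches covered in all 9 *Tdg* null libraries the shares were 2.63%, 0.98%, 70.89% and 27.42% in the same order. A match is a run of letters and not a bound site.

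The WT peaks in the 5 windows numbered 36, in 7 of 10 libraries. All 17 in *Myocd* overlapped a *Tdg* null peak of the same tissue. Of 12 in *Mef2c*, all overlapped a *Tdg* null peak and 9 one of the same tissue, and both in *Mef2d* overlapped a *Tdg* null peak. In *Mef2a*, 1 of 5 overlapped any *Tdg* null peak and 0 one of the same tissue. Over the genome, 85.8% of 141743 WT peaks overlapped a *Tdg* null peak of any tissue. The genome share for the same tissue was not worked out, so the same-tissue counts stand without a background. The stretch chr7:74421001-74421400, in an intron of *Mef2a*, was covered in WT heart e and WT carcass e, which came from the same embryo, and in no *Tdg* null library.

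The genes that work with these factors, or are driven by them, were read from 2 lists, written with earlier results of these data known. Of 16 partners and regulators, 14 were matched to a single gene and 12 had a peak in at least 2 *Tdg* null libraries. *Hand2* had peaks in the 2 *Tdg* null hearts and no other *Tdg* null library, so it could enter only by being higher there. Of the other 11, heart was higher than hindbrain in 6 and lower in 0, against 16.4% and 11.6% of all windows, with a median difference of 1.03 against 0.13 over all windows. The shares and the median over all windows also include windows with peaks in the hearts alone. The largest called differences among these 11 were those of *Gata4*, which encodes a zinc-finger factor of the heart (3.43 ± 0.24, SE), and *Tbx5*, a T-box factor of the atria and left ventricle (1.42 ± 0.20, SE). *Gata4* had 53.2% and 35.9% of its window covered in the *Tdg* null hearts and 20.5% in the liver, but 1.45% to 2.17% in the other 6. *Hand2*, a helix-loop-helix factor of the right ventricle, had 9.60% and 3.69% in the hearts and was not ranked. *Mef2b*, a Mef2 gene outside the members, was among the 11. Heart against hindbrain was not called for it (-0.85 ± 0.75, SE, limma adjusted p = 0.406). It had 2.43% in both hearts and 1.62% to 6.88% in the hindbrains.

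Of 16 known targets of Srf or Mef2, all of which were tested, 6 were higher in heart than in hindbrain (16.4% of all windows) and 0 lower (11.6%), with a median of 1.10. They were led by *Myh6*, the cardiac alpha myosin heavy chain (2.72 ± 0.38), *Xirp1*, an actin-binding protein of the intercalated disc (2.28 ± 0.41), and *Actc1*, cardiac alpha actin (2.26 ± 0.33; SE). *Myh6* was covered over 69.5% and 42.4% in the hearts and 2.69% to 9.84% in the other 7. Against carcass, 4 of the 11 partners and 6 of 16 targets were higher in heart (19.4% of all windows) and 0 lower (8.22%). Carcass against hindbrain gave 0 calls in either list in limma. At an unadjusted p of 0.05 it gave 2 of the 11 partners and 0 of 16 targets higher, against 7.09% of all windows, and 2 of 11 and 5 of 16 lower, against 21.9%. At the same p, 0 partners and 0 targets were lower in heart than in hindbrain, against 18.2%, and 1 partner and 0 targets were lower in heart than in carcass, against 13.2%.

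Since the files hold no transcripts, the tissue labels could be set only against 5fC at marker genes. *Gata1*, *Hba-x* and *Twist1* had peaks in fewer than 2 *Tdg* null libraries outside the heart and are left out of these counts. The shares of all windows given beside the counts still include such windows. Heart was higher than hindbrain in 4 of 5 heart muscle markers, 1 of 3 neural, 1 of 4 hepatoblast, 0 of 2 erythroid, 1 of 5 endothelial and 0 of 4 mesenchyme and somite markers, against 16.4% of all windows. It was lower in 1 neural and 1 mesenchyme or somite marker, against 11.6%. Heart was higher than carcass in 4 of 5 heart muscle markers, 3 of 5 endothelial (*Kdr*, *Cdh5* and *Pecam1*, by 0.97, 1.13 and 0.82) and 1 of 4 hepatoblast markers (*Afp*), against 19.4% of all windows. It was lower in 2 of 4 mesenchyme and somite markers (*Pax3* and *Myf5*), against 8.22%. Of the markers left out, *Gata1* was covered over 5.90% and 2.08% in the *Tdg* null hearts and 1.74% in the liver. *Twist1* had 4.12% and 3.29% in the hearts and 1.65% in hindbrain A. Both passed the filter only through the hearts, so no call is given for them. The marker windows called above differed between the same tissues as *Myocd* and *Mef2a*, and their part in those differences was not tested.

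The pattern of each member over the 9 *Tdg* null libraries was compared with that of every other gene window of at least 20 kb. The closest were *Tcp11l2*, *Lemd3* and *Mybpc3* for *Myocd* (Pearson r of 0.993, 0.990 and 0.988), *Erg*, *Mgll* and *Cdk6* for *Mef2c* (0.980, 0.977 and 0.958), and *2310016D23Rik*, *Btbd16* and *Slc35e3* for *Mef2a* (0.990, 0.978 and 0.977). *Recql5*, *Dok2* and *Lipe* were closest to *Mef2d* (0.954, 0.952 and 0.950), and *Fam92b*, *Jakmip3* and *Marveld2* to *Srf* (0.970, 0.960 and 0.958). An r above 0.9 was reached by 4.20% of the windows for *Myocd* and 0.223% for *Mef2d*. Among the members themselves *Mef2a* and *Myocd* were most alike (r = 0.862), then *Mef2d* and *Myocd* (r = 0.721), while *Srf* had r between -0.375 and 0.142 with the other 4. The 9 points share their libraries, so these values describe the libraries and carry no test.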

How the data were processed

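The data are lists of 5fC peak positions, 1 list for each of 20 pull-down libraries, of which 19 were used. Per the labels and methods, the authors trimmed reads with Trim Galore, aligned them to NCBIM37 (mm9) with Bowtie2 and called peaks with MACS in SeqMonk (p-value cutoff 1e-05, fragments of 200 bp). The deposited values are peak starts and ends on a 100 bp grid, with no count or score. Weaker or thinner libraries yield fewer called peaks. Genes and exons are from GENCODE vM1. Python 3.11.15 (scipy 1.17.1) and limma 3.58.1 (R 4.3.3) were used. Coverage is the percentage of a window under peaks. The limma fit (lmFit, eBayes with trend) used log2(percent + 1) minus the same of the genome, with tissue as the term, over windows with a peak in at least 2 *Tdg* null libraries, adjusted by Benjamini-Hochberg at a threshold of 0.05. Scripts were tested on simulated data. The members and lists were chosen with earlier results of these data known.

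WT and *Tdg* null embryos are paired as the litter field of the labels gives them, which ties each *Tdg* null embryo to 1 WT embryo (pairs e and f are named pair_a and pair_b there); deviations of hindbrain pairs correlated at 0.0577, 0.0133, -0.0146 and -0.0552. Named genes were the members, the 3 largest called heart-against-hindbrain differences per pathway list and the 3 closest patterns per member. Alternatives changed the scaling, pseudocount, filter, window, peak length, merging of peaks, block and libraries. Separate embryos give the replicates.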

Additional observations from a re-analysis of the deposited data

Results flagged for a closer look

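*Mef2c* in *Tdg* null hindbrain was covered over 2.42% of its window in litter O, apart from the other 3 litters at 4.20% to 4.26%. *Mef2c* in WT hindbrain was covered over 0.461% in litter Q, while the other 3 litters had no peak. The critical value used for such a gap is one that about 1 in 20 groups of 4 would pass by chance, and with 3 values at 0 any single peak passes it.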

How the results depend on the processing

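The heart-against-hindbrain and heart-against-carcass calls for *Myocd* and the heart-against-hindbrain call for *Mef2c* kept direction and threshold under every alternative run. Over all results, 363 of 468 alternatives left the outcome the same. Among these are differences called in neither fit, and counts of windows or peaks that changed little. The alternatives that changed the outcome, and some that moved a value by over 1.5 times, are given next, and the cause was not tested. Without scaling, heart against hindbrain was 1.61 for *Mef2c* (still called), 2.50 for *Mef2d* (now called) and 0.44 for *Srf*, heart against carcass 1.90 for *Mef2a* (call lost), with 3648 windows called against 7544, and carcass against hindbrain 0.38 for *Myocd* (sign turned). Scaled to the median window, heart against hindbrain was 1.20 for *Mef2a* (call lost), heart against carcass -0.0014 for *Mef2c*, and 1008 windows differed between carcass and hindbrain against 1560. A pseudocount of 0.2 gave 1.64 for *Mef2a* in heart against hindbrain (call lost) and -0.041 for *Srf* in carcass against hindbrain. A pseudocount of 5 kept the calls for *Mef2a* at smaller sizes (0.51 in heart against hindbrain and 1.004 against carcass) and gave calls for *Mef2d* in heart against hindbrain (1.35) and against carcass (1.22) and for *Mef2a* in carcass against hindbrain (-0.49), with 2562 windows called in the latter. With no filter, *Mef2a* lost its heart-against-hindbrain call (1.17). On the gene body alone, *Mef2d* gained it (1.94) and *Srf* had -0.049 in carcass against hindbrain, -2.30 in heart against hindbrain and -2.25 in heart against carcass, none called, and genotype differences of 13.4 percentage points in hindbrain and 12.8 over pairs. On protein-coding windows, an alternative chosen after seeing the data, *Mef2d* also gained it (1.92, limma adjusted p = 0.0426). With heart and carcass fitted alone, *Mef2d* was called (1.62).

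With the litter pair as a replicate block, heart against carcass was 2.08 for *Mef2a* (call lost) and 1.62 for *Mef2d* (call gained), with 3378 windows called, and the hindbrain genotype differences of 1.14 (*Mef2a*), 3.66 (*Mef2c*), 4.03 (*Mef2d*), 8.53 (*Myocd*) and 7.12 (*Srf*) percentage points had an exact sign-flip p of 0.125. The block changed no other call. Heart and hindbrain share no pair and could not be paired.

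With peaks of at least 600 bp alone, the genotype difference in hindbrain was 0.297 for *Mef2a* and 3.78 for *Mef2d* (exact permutation p = 0.143 each), and over pairs 0.820 and 6.79 (exact p = 0.0625); for *Mef2c* it was 1.87 and 3.88, still at the smallest possible p. Scaled to genome coverage on the log2 scale, it was -0.84 for *Mef2a*, 0.20 for *Mef2c* and 0.16 for *Mef2d* in hindbrain (exact permutation p = 0.0286, 0.114 and 0.771). Over pairs it was -0.75 and 0.47 for *Mef2a* and *Mef2d*. The pseudocount of 1 exceeds the genome coverage of every WT library. A WT window with few or no peaks thus takes a value set mainly by the genome coverage of its library, so these signs carry no weight.

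With single libraries left out, heart against hindbrain ran from 1.05 to 1.25 for *Mef2a*, 1.55 to 2.33 for *Mef2d* and -0.43 to 0.15 for *Srf* (above 0 without heart f), with 3185 (without heart f) to 7659 windows called. Heart against carcass ran from -0.53 to 0.23 for *Srf* (above 0 without carcass e or heart f), with 3499 to 7572 windows called; 3499 was without heart f, 3987 without carcass e and 4541 without carcass f. Carcass against hindbrain ran from -0.074 (without hindbrain Q) to 0.71 for *Mef2d* and -0.37 to 0.39 for *Srf* (below 0 without hindbrain Z or carcass e), with 716 (without carcass e), 805 (without hindbrain Q) and up to 1809 windows called. With 1 litter pair left out at a time, the hindbrain genotype difference ran from 0.989 to 1.38 for *Mef2a*, 3.47 to 4.07 for *Mef2c*, 2.27 to 5.04 for *Mef2d*, 8.35 to 8.70 for *Myocd* and 6.38 to 8.28 for *Srf*, with the smallest possible exact p of 0.1. Over pairs it ran from 1.46 to 2.07, 5.07 to 6.79, 5.84 to 8.31, 10.3 to 12.9 and 7.30 to 8.64 in the same order, with the smallest possible exact p of 0.0625. The unknown depth and the 2 libraries of heart and of carcass limit all tissue comparisons.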
